A study of Drosophila melanogaster with 33 samples.

Results

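The genes described here set the sex of Drosophila cells and equalise the output of the X chromosome between the sexes. The members are Sxl, tra, msl-2, dsx, fru and the long non-coding RNAs roX1 and roX2, 7 genes in all. A probe set was taken for a member where the array annotation gave it to that gene alone, and where a gene had several, that of highest mean across the arrays stood for it. By this rule 5 of the 7 members were found among 11982 genes, and all 5 were among the 8264 genes tested. roX1 and roX2 are not analysed here, since no probe set was annotated to either. The 5 members had 14 probe sets: 7 for fru, 3 for Sxl, 2 for dsx, and 1 each for tra and msl-2. The rule names the members without use of a measured value, but they were chosen with earlier results of these data known.

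In the fly, the count of X chromosomes switches Sxl on in female cells. Sxl is an RNA-binding protein that makes its own transcript and that of tra be spliced in the female way, and it represses translation of msl-2. Tra then steers the splicing of dsx and fru, the transcription factor genes that shape sexually different tissues and, for fru, neurons of male behaviour. Where Sxl is absent, the protein Msl-2 assembles with the roX RNAs and other Msl proteins on the male X and raises its transcription. Transcripts of Sxl, tra, dsx, fru and msl-2 are made in both sexes and differ between them mainly in splicing or translation, so a probe set can read both forms together.

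The study profiled total RNA on 33 Affymetrix arrays, 1 per sample, in 9 groups. Tumours of brains with the temperature-sensitive allele l(3)mbt ts1 had been passed from host to host in adult flies. They had 3 arrays each at rounds 1, 5 and 10 of this culture, called T1, T5 and T10. Larval brains homozygous for ts1 had 6 arrays at the restrictive temperature of 29 °C and 3 at 17 °C. Brains homozygous for the allele E2 had 3 arrays at 29 °C and 3 at 17 °C, and ts1/E2 transheterozygous brains (written TS1/ME2 in the labels) had 3 at 29 °C. Wild type (WT, the strain w1118) had 6 arrays, with no tissue or temperature given in the labels, so allele and temperature cannot be told apart against WT. The sex of the larvae and of the tumour hosts, and whether arrays hold separate animals, pools or tumour lines, are not given either. The p-values therefore measure only the spread between these samples.

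The arrays were run at 2 sites, IRB BARCELONA (24 arrays) and EMBL (9). WT replicates 1 to 3 and ts1 29 °C replicates 4 to 6 were at IRB, WT replicates 4 to 6 and ts1 29 °C replicates 1 to 3 at EMBL, ts1 at 17 °C was at EMBL, and every other group was at IRB. The WT means of the sites were equal for every probe set in the deposited values, with a largest difference of 6.67e-09, so a difference between the WT samples of the sites cannot be seen. All comparisons were made within a site. In earlier results of these data 5 arrays stood apart by weak 5' control signal or by the second principal component: E2 29 °C replicate 1, ts1 17 °C replicate 2, ts1 29 °C replicates 3 and 6, and E2 17 °C replicate 2. Values are log2 expression, 1 log2 unit being a 2-fold difference, and a level below 4 is near background. l(3)mbt itself averaged 7.23 ± 1.40 to 9.09 ± 0.19 in the mutant and tumour groups at IRB, and 7.52 ± 0.53 in WT of that site (SD, n = 3 each). The labels do not say where the alleles are changed, so its probe set is no check of the labels.

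Cell type markers were summed over their list on each array and are given as log2 of the sum. The sum of 4 neuronal markers was 10.31 to 11.71 in the tumours and 12.09 to 13.55 in WT. In the mutant brains it was 12.22 to 12.94 at IRB, but 11.09 to 11.26 in ts1 brains at 29 °C and 10.02 to 11.86 in ts1 brains at 17 °C at EMBL, so those overlapped with the tumours. The sum of 2 glial markers was 6.41 to 7.79 in the tumours and 11.49 to 11.69 in WT, and 9.53 to 11.72 in the mutant brains. The sum of 4 neuroblast markers was 11.29 to 12.66 in the tumours and 11.75 to 12.11 in WT. In E2 brains it was 11.17 to 11.22 at 29 °C and 10.74 to 11.19 at 17 °C, and in ts1/E2 brains 10.73 to 11.12, all under WT. In ts1 brains it overlapped with WT, at 11.67 to 12.98 at 29 °C at IRB, 12.13 to 12.56 at 29 °C at EMBL and 11.64 to 12.17 at 17 °C. In total RNA from a whole tissue, fewer cells of a type and less RNA per cell cannot be told apart. The 7 Y-linked genes found on the array lay near background, with sums of 5.0 to 5.15 on all arrays but 1 of the E2 brains at 29 °C, where the sum reached 7.24 and kl-2, a sperm dynein gene, reached 6.94. They give no reading of the share of males here.

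Among the 5 members, fru was the single gene called in any comparison, with an adjusted p under 0.05 and a difference of at least 1 log2 unit (limma, Benjamini-Hochberg over all 8264 genes). Against WT, 1 of 5 members was called in T1, where 27% of all genes were called, 1 in T5 (26.6% of all genes) and 1 in T10 (25.8%). Of all genes, 12.7%, 12.9% and 12.3% were called higher in T1, T5 and T10. Against ts1 brains at 29 °C of the same site, 1 of 5 was called in T1, against 26.2% of all genes, 15.5% of them being higher. A share of 1 in 5 is near these backgrounds.

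No member was called in the brains. Against WT the count was 0 of 5 in ts1 brains at 29 °C at EMBL (6.76% of all genes called) and at IRB (8.79%), in E2 brains at 29 °C (9.06%), in ts1/E2 brains (5.87%), in ts1 brains at 17 °C (1.19%) and in E2 brains at 17 °C (4.27%). It was 0 of 5 between 29 °C and 17 °C in ts1 brains (2.26%) and in E2 brains (6.52%), and for the difference between those temperature effects (0.375%). It was 0 of 5 for T5 against T1 (4.49%), T10 against T5 (0.29%), T10 against T1 (5.91%) and the site difference of the ts1 brains (3.68%). At limma's p before adjustment, 2 tests of a member in brains against WT were under 0.05: dsx in ts1 brains at 29 °C at IRB (adjusted p = 0.13) and fru in ts1/E2 brains (adjusted p = 0.246).

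Sxl, the switch gene on the X chromosome, was measured at a high and even level by its main probe set, 1634337_s_at. It had 11.27, 11.19 and 11.24 in T1, 11.11, 10.93 and 11.05 in T5, 11.21, 11.36 and 11.24 in T10, and 11.14, 11.22 and 11.09 in WT at IRB. Over all 33 arrays it ran between 10.44 and 11.74, and both ends were brains: ts1 at 17 °C and E2 at 29 °C. The tumours averaged 11.18 ± 0.13 (SD, n = 9), with 11.17 ± 0.29 (SD, n = 24) on the brain and WT arrays. The differences from WT were 0.08 in T1 (95% interval -0.33 to 0.49), -0.12 in T5 (-0.53 to 0.29) and 0.12 in T10 (-0.29 to 0.53), so a 2-fold difference lies outside each interval. The probe set 1632915_s_at also ran close to 10, at 9.92 ± 0.25 in the tumours (SD, n = 9) and 10.25 ± 0.46 in WT (SD, n = 6), and was not called in any comparison. Its lowest value, 8.10, was on ts1 17 °C replicate 2, an array that stands apart.

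The third Sxl probe set, 1625620_a_at, behaved otherwise. It had 7.91, 8.10 and 7.95 in T1, 6.57, 6.28 and 7.85 in T5, and 7.88, 7.28 and 7.30 in T10. In ts1 brains at 29 °C it had 9.69, 8.87 and 10.76 at IRB and 8.63, 9.37 and 9.28 at EMBL, and in WT it had 10.64, 9.22 and 10.70 at IRB and 9.26, 10.86 and 10.45 at EMBL. All 9 tumour arrays, at 6.28 to 8.10, lay below all 24 brain and WT arrays, at 8.13 to 10.86. The mutant brains overlapped with WT: E2 brains at 29 °C had 9.95, 10.02 and 10.07, ts1/E2 brains 10.41, 10.02 and 8.91, ts1 brains at 17 °C 8.85, 8.13 and 9.33, and E2 brains at 17 °C 10.51, 10.58 and 9.09. The lowest brain value, 8.13, was that of ts1 17 °C replicate 2, which stands apart.

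In a fit over all 11060 probe sets, Sxl 1625620_a_at was lower than in WT by -2.20 ± 0.53 (SE) in T1 (limma adjusted p = 0.00228), -3.29 ± 0.53 in T5 (adjusted p = 2.43e-05) and -2.70 ± 0.53 in T10 (adjusted p = 0.000284). Of all probe sets, 24.9%, 25.4% and 24.4% were called in these comparisons, and 13.6%, 13.2% and 13.1% were called lower. These calls held in every alternative tried. T1 was lower than ts1 brains at 29 °C by -1.78 ± 0.53 (adjusted p = 0.0125), where 24.3% of probe sets were called. That call was lost without ts1 29 °C replicate 6, the array with 10.76, at -1.29 and adjusted p = 0.112, and without the 5 arrays apart, at -1.29 and adjusted p = 0.0843. In ts1 brains at 17 °C the difference from WT was -1.42 ± 0.53 with an adjusted p of 0.25. Which transcript forms each Sxl probe set reads is not given in the sources used here, and its values beside the tumours' lower glial and neuronal sums were not tested for a part in one another.

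**Figure D1:**
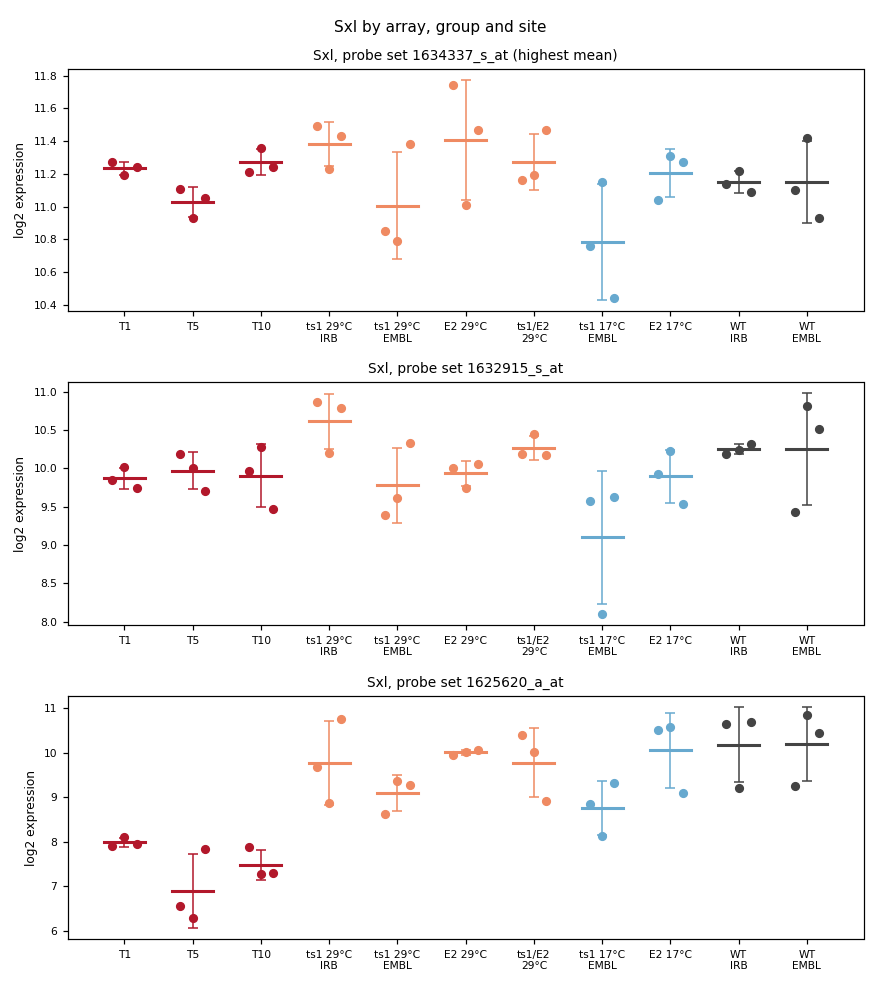
Log2 expression of the 3 Sxl probe sets on each array (points), with the group mean (line) and SD (bar) at each site; groups run along the horizontal axis, tumours first and WT last. In the upper panels tumours and WT overlap, and in the lowest panel all 9 tumour arrays (6.28 to 8.10) lie under the 24 others (8.13 to 10.86).

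The gene tra, on chromosome arm 3L, encodes the splicing regulator that acts next after Sxl. It had 9.99, 10.07 and 9.88 in T1, 10.03, 9.93 and 9.87 in T5, and 9.75, 9.64 and 9.86 in T10, against 10.46, 10.18 and 10.66 in WT at IRB. Every tumour array was below every WT array of that site. The differences were nevertheless small, at -0.45 ± 0.25 (SE) in T1 (adjusted p = 0.172), -0.49 ± 0.25 in T5 (adjusted p = 0.137) and -0.68 ± 0.25 in T10 (adjusted p = 0.0357), so T10 passed the p but not the size. In ts1 brains at 29 °C tra had 9.99, 9.73 and 10.44 at IRB and 10.40, 10.56 and 9.72 at EMBL, and these overlapped with both T1 and WT. The other mutant brains ran between 9.78 and 10.80.

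The single tra probe set, 1626806_at, therefore spanned 9.64 to 10.80 over all 33 arrays. In order of the group means, T10 was lowest (9.75 ± 0.11), then T5 (9.94 ± 0.08) and T1 (9.98 ± 0.09), with ts1 brains at IRB next and WT at 10.43 (SD, n = 3 each at IRB). T1 and T5 did not differ beyond their spread, at -0.04 ± 0.25 (SE) for T5 against T1. T10 lay below T1 by -0.23 ± 0.25, with a 95% interval of -0.74 to 0.28.

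The gene msl-2, on 2L, encodes the protein of the dosage compensation complex that is made only in males. Its probe set had 9.97, 9.67 and 9.82 in T1, 9.89, 9.77 and 9.77 in T5, and 10.20, 10.29 and 9.99 in T10. WT had 9.35, 10.06 and 9.26 at IRB and 9.64, 9.36 and 9.67 at EMBL, and WT replicate 2 made the groups overlap. The difference from WT was 0.26 ± 0.30 (SE) in T1, 0.25 ± 0.30 in T5 and 0.60 ± 0.30 in T10 (adjusted p = 0.129, 95% interval -0.01 to 1.22). Within the brains the arrays of a group could lie far apart: E2 brains at 17 °C had 8.86, 8.80 and 10.03, ts1/E2 brains 8.81, 8.98 and 9.72, and ts1 brains at 29 °C at IRB 10.34, 9.98 and 9.19. The other groups were tighter, with 9.21, 9.19 and 9.50 in E2 brains at 29 °C, 9.48, 9.42 and 9.49 in ts1 brains at 29 °C at EMBL, and 9.92, 9.68 and 9.39 in ts1 brains at 17 °C.

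The gene dsx, on 3R, encodes the transcription factor whose male and female proteins set most visible sex differences of the body. Its main probe set, 1640799_at, had 7.67, 7.18 and 7.28 in T1, 7.40, 7.68 and 7.41 in T5, and 7.70, 7.86 and 7.79 in T10, against 6.95, 7.25 and 6.90 in WT at IRB. All T5 and T10 arrays were above the WT arrays of that site. T10 differed by 0.75 ± 0.25 (SE, adjusted p = 0.023), under the required size, and T1 and T5 differed by 0.34 ± 0.25 and 0.46 ± 0.25, with adjusted p of 0.324 and 0.17. E2 brains at 29 °C had 7.46, 7.61 and 7.55, all above WT too, at a difference of 0.50 ± 0.25 (adjusted p = 0.159).

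In ts1 brains at 29 °C dsx had 7.97, 7.61 and 7.34 at IRB but 6.69, 6.60 and 6.70 at EMBL, so the sites did not overlap. The site difference, taken relative to WT, was 0.98 ± 0.36 (SE, unadjusted p = 0.011, adjusted p = 0.117). Against the WT of its own site the difference was 0.61 ± 0.25 at IRB (adjusted p = 0.13) and -0.37 ± 0.25 at EMBL (adjusted p = 0.465). ts1 brains at 17 °C had 6.71, 6.92 and 7.91, E2 brains at 17 °C 7.53, 7.21 and 7.61, and ts1/E2 brains 7.75, 7.06 and 7.65, all overlapping with WT of their site.

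The second dsx probe set, 1623776_s_at, was near background on most arrays. The tumours held 2.10 to 2.22 and WT at IRB 6.29, 2.12 and 4.53, so WT itself spanned from background to a clear signal. T1, T5 and T10 were called lower than WT by -2.17, -2.20 and -2.20 (adjusted p = 0.00959, 0.00836 and 0.00869), and ts1 brains at 29 °C at IRB by -2.15 (adjusted p = 0.0278), where 10.5% of probe sets were called. Without WT replicate 1, the array with 6.29, these became -1.18, -1.21, -1.21 and -1.16 and none was called, with adjusted p of 0.132, 0.12, 0.123 and 0.261.

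**Figure D2:**
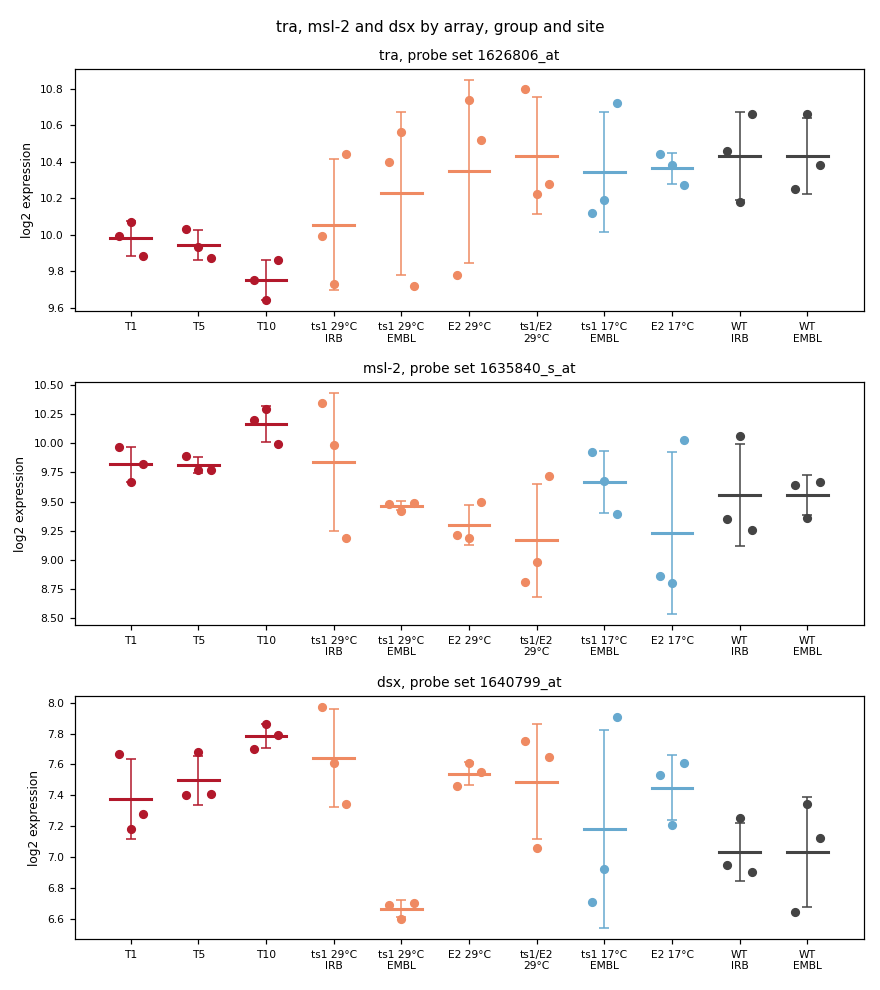
Log2 expression of tra, msl-2 and dsx (main probe set) on each array, with group mean (line) and SD (bar) at each site; the vertical axes differ between panels and do not start at 0. The tra tumour arrays lie at 9.64 to 10.07, the msl-2 values scatter most within brain groups, and dsx in ts1 brains at 29 °C is split by site.

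The gene fru, on 3R, encodes a family of zinc finger transcription factors, of which forms made in both sexes act in development and male forms act in neurons of courtship. Its main probe set, 1631498_a_at, had 8.41, 8.47 and 9.37 in T1, 9.63, 9.10 and 9.18 in T5, and 9.49, 10.03 and 9.63 in T10. WT had 6.67, 7.06 and 6.54 at IRB and 6.66, 6.67 and 6.94 at EMBL. Every tumour array was above every WT array. The difference from WT was 1.99 ± 0.55 (SE) in T1 (limma adjusted p = 0.00578), 2.54 ± 0.55 in T5 (adjusted p = 0.000647) and 2.96 ± 0.55 in T10 (adjusted p = 0.000124). These 3 calls held in every alternative tried. T10 was not called against T1, at 0.97 ± 0.55 (adjusted p = 0.413), though its arrays lay above those of T1.

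The brains at 29 °C were spread for fru. ts1 brains at 29 °C had 7.13, 8.10 and 6.63 at IRB and 6.81, 6.75 and 6.83 at EMBL, E2 brains 8.90, 6.36 and 7.84, and ts1/E2 brains 6.80, 8.62 and 8.28. Some arrays of these groups reached the T1 range and others stayed at WT level. At 17 °C the values were 6.85, 4.65 and 6.73 in ts1 brains and 6.31, 6.83 and 6.82 in E2 brains, and 4.65 belongs to the array of ts1 at 17 °C that stands apart. E2 brains at 29 °C lay above WT by 0.94 ± 0.55 (SE, adjusted p = 0.219) and ts1/E2 brains by 1.14 ± 0.55 (adjusted p = 0.246). Without E2 29 °C replicate 2, the array with 6.36, fru was called in E2 brains at 29 °C against WT at 1.61 (adjusted p = 0.0257) and against 17 °C at 1.71 (adjusted p = 0.0284). The array with 8.90 is E2 29 °C replicate 1, which stands apart. Without it these differences fell to 0.34 and 0.45, and neither was called.

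T1 was above ts1 brains at 29 °C of the same site by 1.46 ± 0.55 (SE, adjusted p = 0.0411), with no overlap of the arrays. This call was marginal. It was lost without the 5 arrays apart (1.13, adjusted p = 0.0547), and on leaving out any array of the 2 groups except ts1 29 °C replicate 5.

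Of the other fru probe sets, 3 carried signal, and they moved with the main one in the tumours. The probe set 1629904_at averaged 7.29 ± 0.63 in T1, 7.92 ± 0.31 in T5 and 8.54 ± 0.49 in T10, against 4.95 ± 0.37 in WT at IRB (SD, n = 3 each), with differences of 2.34, 2.97 and 3.59 (each ± 0.57 SE). The probe set 1632859_a_at averaged 5.98 ± 1.26, 8.0 ± 1.02 and 8.38 ± 0.93 in T1, T5 and T10, against 3.75 ± 0.08 in WT, with differences of 2.23, 4.25 and 4.63 (each ± 0.71 SE). The probe set 1641338_at averaged 5.71 ± 1.13, 6.30 ± 0.21 and 6.36 ± 1.02, against 3.21 ± 0.20 in WT, with differences of 2.50, 3.09 and 3.15 (each ± 0.81 SE). All 9 differences were called, with adjusted p from 1.21e-05 to 0.0193. In T1 the calls of 1632859_a_at and 1641338_at were lost without T1 replicate 3, at 1.59 (adjusted p = 0.136) and 1.94 (adjusted p = 0.119), and that of 1641338_at also with a common site term (1.81, adjusted p = 0.0952), with the IRB arrays alone (adjusted p = 0.0519) and without WT replicate 1 (adjusted p = 0.0557) or 3 (adjusted p = 0.0529). WT at IRB lay near background for 1632859_a_at and 1641338_at, so the sizes of their differences are not exact.

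The probe sets parted in the brains. 1641338_at stood at 5.33, 5.72 and 6.77 in ts1 brains at 29 °C at IRB but at 3.15, 3.15 and 3.17 at EMBL, against 3.07, 3.44 and 3.11 in WT at IRB. It was called at IRB, at 2.73 ± 0.81 (SE, adjusted p = 0.0293), and this was lost with a common site term (1.34, adjusted p = 0.196), with the IRB arrays alone (adjusted p = 0.082), without ts1 29 °C replicate 6 (2.32, adjusted p = 0.132) and without any single WT array (adjusted p from 0.0651 to 0.105). The site difference itself was 2.78 ± 1.14 (adjusted p = 0.161). In the other brains at 29 °C 1641338_at had 7.11, 2.84 and 5.26 in E2 and 3.60, 6.63 and 6.46 in ts1/E2. Their differences from WT, 1.86 ± 0.81 (adjusted p = 0.107) and 2.36 ± 0.81 (adjusted p = 0.0834), were not called. 1629904_at was higher in T1 (6.57, 7.65 and 7.65) than in ts1 brains at 29 °C at IRB (4.74, 7.28 and 3.51) by 2.12 ± 0.57 (adjusted p = 0.00666), though the arrays overlapped, and the call was lost without ts1 29 °C replicate 6 (1.28, adjusted p = 0.0916). 1632859_a_at was above T1 in T10 by 2.40 ± 0.71 (adjusted p = 0.0458), where 5.1% of probe sets were called, and that call was lost in most alternatives. Of the remaining 3 fru probe sets, 1638111_at ran at 3.76 to 4.47 over all arrays and another at 2.27 to 2.54. The third, 1634379_a_at, was low in T1 (2.69, 2.71 and 2.87) and higher in T5 (4.88, 3.93 and 3.71) and T10 (3.44, 5.38 and 3.98), against 2.71, 2.70 and 2.69 in WT at IRB. Every T5 and T10 array of it lay above the WT arrays of that site, but too few arrays were above 4 for it to enter the tests.

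Markers of several other cell types also differed between tumours and WT. All 4 neuronal markers were called lower in T10, 3 in T5 and 2 in T1, and both glial markers were called lower in all 3 tumour groups, while fru was higher. Of 4 markers of hemocytes, the blood cells, Hml and NimC1 were called higher and Pxn lower in all 3 tumour groups, and the sum of the 4 was 6.39 to 9.65 in the tumours and 7.18 to 8.54 in WT at IRB. Of 3 markers of the larval fat body, 3 were called lower in T1, 2 in T5 and 3 in T10, with sums of 4.79 to 10.55 in the tumours and 11.38 to 12.97 in WT at IRB. For scale, 27%, 26.6% and 25.8% of all genes were called in T1, T5 and T10 against WT. The part of these cell types in the fru difference was not tested.

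**Figure D3:**
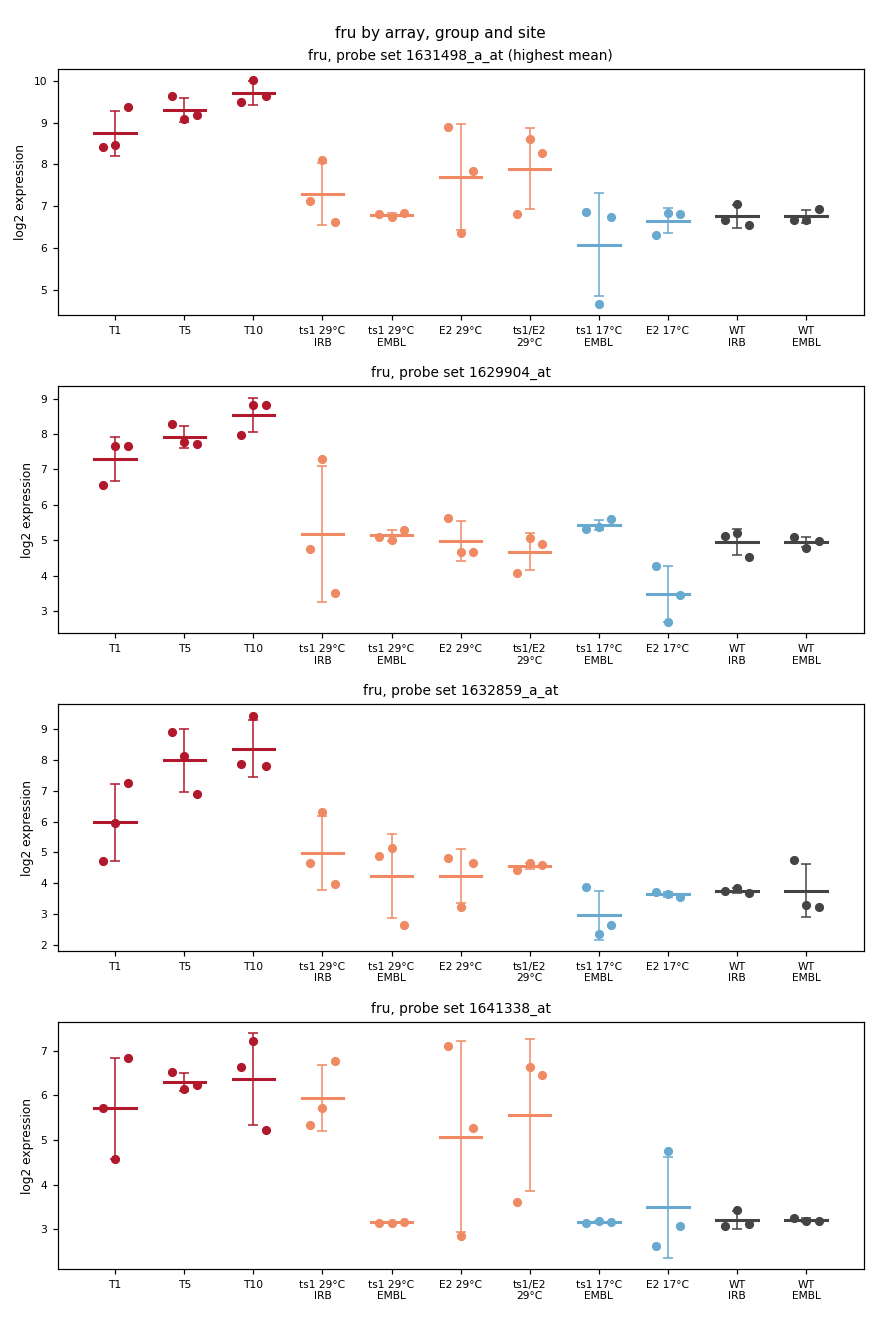
Log2 expression of the 4 fru probe sets with signal on each array, with group mean (line) and SD (bar) at each site; groups run along the horizontal axis, tumours first and WT last. In the top panel the 9 tumour arrays (8.41 to 10.03) are above all 6 WT arrays (6.54 to 7.06), and in the bottom panel ts1 brains at 29 °C differ between the sites.

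Partners of the members were followed through lists of known genes, with their counts as a description. Of the 7 other dosage compensation genes (msl-1, msl-3, mle, mof, Clamp, JIL-1 and Unr), all tested, 0 were called in any comparison. The share of all genes called ran from 0.29% in T10 against T5 to 27% in T1 against WT. The median difference of the 7 from WT was -0.31 in T1, -0.44 in T5 and -0.03 in T10, with medians of all genes of -0.01, 0.09 and 0.09. In ts1 brains at 29 °C at EMBL, 1 of the 7 was called lower when the 5 arrays apart were left out.

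Of 9 genes that count X chromosomes in the embryo, 7 were tested. In T5 and T10, 2 of 7 were called higher than in WT: sc, a proneural factor gene, by 2.52 ± 0.56 and 2.46 ± 0.56 (SE), and upd1, which encodes a JAK-STAT ligand, by 3.98 ± 0.86 and 3.95 ± 0.86. In T1, upd1 was called higher by 2.33 ± 0.86 (adjusted p = 0.0376), lost on leaving out any array of the groups, and dpn, a repressor gene of neuroblasts, was called lower by -1.85 ± 0.42. In E2 brains at 29 °C 2 of 7 were called lower, upd1 (-2.84) and dpn (-1.32), and neither without the 5 arrays apart, without E2 29 °C replicate 1 alone or without any single WT array. In ts1/E2 brains 1 of 7, dpn, was lower by -1.46. That call was lost without ts1/E2 replicate 2 (-1.06, adjusted p = 0.282), without any single WT array, with the IRB arrays alone (adjusted p = 0.0624) and with a replicate block (adjusted p = 0.0548), while 3 genes were called lower there without the 5 arrays apart. The share of all genes called against WT was 27% in T1, 26.6% in T5, 25.8% in T10, 9.06% in E2 brains at 29 °C and 5.87% in ts1/E2 brains. Genes of this list also act in neuroblasts and in growth signalling. dpn is also among the neuroblast markers summed above, and the part of neuroblasts in its calls was not tested.

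Of 9 genes whose products act with Sxl in splicing or set the m6A mark on its transcript, 7 were tested. Against WT 1 of 7 was called in T1, 1 in T5 and 0 in T10, where 27%, 26.6% and 25.8% of all genes were called. Against ts1 brains at 29 °C 2 of 7 were called in T1, against 26.2% of all genes. Flacc, a subunit of the m6A writer complex, was lower than in WT by -1.78 ± 0.32 (SE, adjusted p = 9.01e-05) in T1 and by -1.01 ± 0.32 (adjusted p = 0.0154) in T5, and was not called in T10. The T5 call was lost without T5 replicate 3 (-0.74, adjusted p = 0.111) and, by size, without WT replicate 1 or 2 (both -0.97). It averaged 7.38 ± 0.34 in T1 and 9.16 ± 0.13 in WT at IRB (SD, n = 3 each). Against ts1 brains at 29 °C, Flacc (-1.49) and nito (-1.12), another subunit, were lower in T1. The call of nito fell short of the size with a common site term (-0.96) and without T1 replicate 3 (-0.95), and was lost with the mean of its probe sets. In the brains 0 of 7 were called against WT, where the share of all genes called was 1.19% to 9.06%.

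Of 12 cofactors and targets of tra, dsx and fru, 10 were tested. bab2, a dsx-regulated transcription factor gene of abdomen and ovary, fell to 7.87 ± 0.63 in T1, 6.75 ± 0.49 in T5 and 6.57 ± 0.45 in T10, against 10.77 ± 0.06 in WT (SD, n = 3 each), with differences of -2.90, -4.02 and -4.20 (each ± 0.36 SE, adjusted p from 1.28e-09 to 7.35e-07). bab1, its neighbour and paralogue, was lower by -1.01 in T5, and by -1.41 in ts1 brains at 29 °C at EMBL. The T5 call was lost without T5 replicate 1 (-0.98) or WT replicate 1, and the other with a common site term (-0.95), each by size and not by p. retn, a transcription factor gene of neurons of female behaviour, averaged 1.78 ± 0.53, 1.55 ± 0.08 and 1.64 ± 0.17 in T1, T5 and T10 and 1.72 ± 0.16 in ts1 brains at 29 °C, against 5.37 ± 0.92 in WT at IRB (SD, n = 3 each). It was called lower in every group compared at IRB, with differences from -3.82 in T5 to -2.33 in E2 brains at 17 °C, and that last call was lost without the 5 arrays apart, with a common site term, and without E2 17 °C replicate 2 or WT replicate 1 or 2. Of the groups at IRB, only the WT mean was above 4, so the sizes are not exact. At EMBL, retn was not called.

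The yolk protein genes Yp1, Yp2 and Yp3 and the gene fit, female products of the adult fat body of which the yolk genes are classic dsx targets, were called higher in T1 than in WT. The differences were 7.18 ± 0.81, 5.94 ± 0.83, 4.46 ± 0.90 and 2.77 ± 0.67 (SE, adjusted p = 1.37e-07, 3.45e-06, 0.000348 and 0.00209). The WT means of these genes at IRB, 3.87, 2.34, 2.23 and 2.18, lay near background, so the sizes are not exact. Yp1 averaged 11.05 ± 1.04 in T1, 4.44 ± 1.58 in T5 and 7.58 ± 1.86 in T10, against 3.87 ± 0.77 in WT at IRB (SD, n = 3 each), so the level was high in T1, near that of WT in T5 and between them in T10. T5 was called lower than T1 for all 4 genes, by -6.60 for Yp1. The call of Yp3 was lost without T1 replicate 1 (-2.72, adjusted p = 0.0569), and that of fit without T1 replicate 1 (-2.46, adjusted p = 0.0826), without T1 replicate 3 (-1.93, adjusted p = 0.116) and with the IRB arrays alone (adjusted p = 0.0552). These 4 genes are also the 4 markers taken for the adult female fat body, and the tumours were grown in adult hosts. Their sum was 10.09 to 12.55 in T1, 4.59 to 6.51 in T5 and 5.93 to 9.06 in T10, against 4.52 to 5.32 in WT at IRB. The part of host tissue in these values was not tested, and dsx itself ran at 7.18 to 7.86 in all 3 tumour groups.

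Of 8 genes that act in the sex of the germ line or in its early differentiation, 7 were tested. In T1 7 of 7 were called higher than in WT, in T5 6 and in T10 6, with a median difference of 3.12, 3.50 and 2.69. The shares of all genes called higher there were 12.7%, 12.9% and 12.3%. stil, a regulator of the female germ line, averaged 10.77 ± 0.35 in T1, 9.98 ± 0.40 in T5 and 9.14 ± 0.58 in T10, against 2.94 ± 0.33 in WT (SD, n = 3 each), a level near background. Phf7, which encodes a chromatin reader that in the germ line promotes male identity, was higher by 1.75, 1.81 and 2.02 (each ± 0.36 SE, adjusted p = 0.00044, 0.000282 and 8.18e-05). In the brains at 29 °C the counts called higher were 3 of 7 in ts1 at EMBL (3.69% of all genes higher), 4 of 7 in ts1 at IRB (3.11%), 5 of 7 in E2 (3.98%) and 3 of 7 in ts1/E2 (3.34%), and at 17 °C 0 of 7 in both alleles. Without the 5 arrays apart they were 6, 7, 5 and 6 of 7. Leaving out 1 array took ts1 at IRB to 1 without WT replicate 1 or 2, and to 2 without WT replicate 3 or ts1 29 °C replicate 4, and E2 to 3 without WT replicate 1 or 2. Centring each array on its median moved the share of higher genes among all called to 45.8% in ts1 at IRB (35.4% as reported) and to 53.9% in E2 at 29 °C (43.9%). The genes differed by allele and site: stil was called in E2 (6.18 ± 0.63) and ts1/E2 (7.33 ± 0.63) and stood at 3.74 ± 1.23 (SD, n = 3) in ts1 brains at IRB. The difference between the temperature effects of E2 and ts1 was 4.28 ± 0.88 for stil, but allele and site cannot be told apart in it. These genes thus include both female and male regulators of the germ line.

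X-linked genes were set against autosomal genes on each array. For every gene the WT mean of the site was subtracted, and the median over 6847 autosomal genes was taken from the median over 1377 X-linked genes, with chromosomes from the RefSeq table of the assembly Release 6 plus ISO1 MT. All 9 tumour arrays were below 0: T1 spanned -0.137 to -0.083, T5 -0.18 to -0.12 and T10 -0.091 to -0.054, with medians of -0.087, -0.141 and -0.073. WT spanned -0.049 to 0.022 at IRB and -0.027 to 0.024 at EMBL, and no tumour array lay in these ranges. Each WT array is part of the WT mean taken from it, which draws the WT values toward 0 but not those of the tumours. The lack of overlap is therefore partly set by the construction, and the T10 end, -0.054, lies close to WT. Mutant brains spanned -0.155 to 0.141 and overlapped with both. These are small shifts, well under 1 log2 unit, and they are medians over differently expressed genes of unlike tissues rather than a measure of dosage.

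Among the brains, the 2 lowest arrays for X-linked genes were E2 17 °C replicate 3 (-0.155) and E2 29 °C replicate 1 (-0.15), and the highest was ts1 29 °C replicate 6 (0.141). The last 2 are arrays that stand apart. E2 17 °C replicate 3 was also the lowest array of its group for Sxl 1625620_a_at (9.09, the others 10.51 and 10.58) and the highest for msl-2 (10.03, the others 8.86 and 8.80). ts1 29 °C replicate 6 was the highest array of its group and site for Sxl 1625620_a_at (10.76) and the lowest for msl-2 (9.19).

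**Figure D4:**
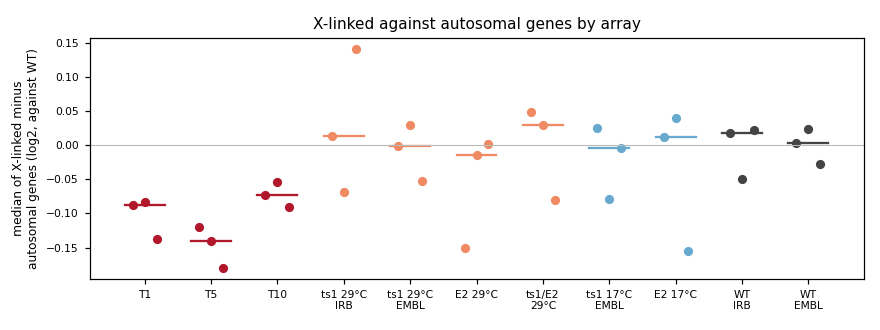
Median log2 difference from WT over X-linked genes minus that over autosomal genes, for each array (points) with the group median (line) at each site. All 9 tumour arrays lie between -0.18 and -0.054, and the mutant brains spread on both sides of 0.

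This opposite movement of Sxl 1625620_a_at and msl-2 was seen in the data and then measured on the same data. Its p-values therefore do not count that choice. The array highest in the main Sxl probe set, 1634337_s_at, was the highest in msl-2 in every tumour group, ts1/E2 brains and WT at IRB. The same held in ts1 brains at the restrictive temperature at both sites. It did not hold in WT at EMBL, in ts1 brains at the lower temperature or in E2 brains at either temperature. The relation of the main probe set with msl-2 was not tested, and the values below are for Sxl 1625620_a_at. Over the deviations of the 33 arrays from their group mean at their site, Pearson's r was -0.72 and Spearman's rho -0.72 (permutation within group and site, two-sided, Benjamini-Hochberg adjusted p = 0.019 and 0.00972 over 36 tests, unadjusted 0.00275 and 0.00108). In 8 of the 11 combinations of group and site the array highest in Sxl 1625620_a_at was the lowest in msl-2, in 5 the lowest was the highest, and in 4 both held. Over the 24 brain and WT arrays r was -0.79 and rho -0.83 (adjusted permutation p = 0.019 and 0.00972). At IRB r was -0.78 (24 arrays, adjusted permutation p = 0.0238) and at EMBL -0.48 (9 arrays, adjusted permutation p = 0.385). Without the 5 arrays apart r was -0.67 (adjusted permutation p = 0.0321), and without the 2 arrays farthest from the median of Sxl 1625620_a_at r was -0.59 (adjusted permutation p = 0.0604) and rho -0.52 (adjusted permutation p = 0.0418).

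The same Sxl probe set ran with the X-linked genes. Its deviations had r = 0.62 and rho = 0.59 with those of the X minus autosome median (33 arrays, adjusted permutation p = 0.019 and 0.019, unadjusted 0.00399 and 0.00442), and r = 0.75 and rho = 0.71 over the brain and WT arrays (both adjusted 0.00972 by permutation). At IRB r was 0.69 (adjusted permutation p = 0.019) and at EMBL 0.35 (9 arrays, adjusted permutation p = 0.415). Without the 5 arrays apart r was 0.56 (adjusted permutation p = 0.0702) and without the 2 farthest arrays r was 0.50 and rho 0.44 (adjusted permutation p = 0.0651 and 0.0702). For msl-2 with the X minus autosome median r was -0.65 and rho -0.55 (both adjusted 0.0358 by permutation, unadjusted 0.0181 and 0.0196), and -0.47 without the 2 farthest arrays (adjusted permutation p = 0.231). Within sites it was -0.71 at IRB and -0.10 at EMBL. The relations with the X-linked genes were also chosen after seeing the data, so their p-values do not count that choice. The adjustment covers only the chosen relations, and the other Sxl probe sets were not tested against the X minus autosome median.

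**Figure D5:**
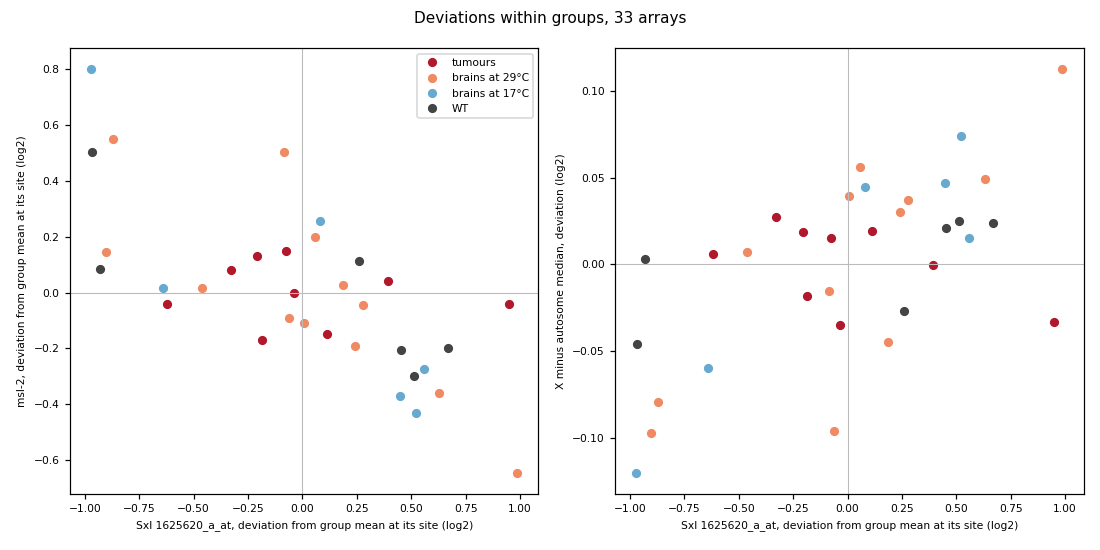
Deviation of each of the 33 arrays from its group mean at its site, Sxl 1625620_a_at on the horizontal axis (log2) and, on the vertical axes, msl-2 (left) and the X minus autosome median (right). Points of tumours, brains at 29 °C, brains at 17 °C and WT are coloured apart; msl-2 runs against Sxl 1625620_a_at (r = -0.72) and the X minus autosome median with it (r = 0.62).

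Ranked over all 11060 probe sets by these deviations, msl-2 had the 5th most negative r with Sxl 1625620_a_at. Chd3 (-0.73), thr (-0.73), Zwilch (-0.73) and CG32625 (-0.72) stood before it. Chd3 encodes a chromatin remodeller, thr the fly separase and Zwilch a kinetochore protein. The most positive were Wdr33 (0.77), ct (0.74), Sh (0.73), CG32655 (0.72) and Frq1 (0.70) and 3 probe sets with no listed gene. Of these named genes ct, a homeobox gene, Sh, a potassium channel gene, CG32655 and Frq1 are X-linked, and Wdr33 is on 3R. At the negative end CG32625 is X-linked too, and Chd3, thr and Zwilch are on 3L, 2R and 3R. Among the genes tested, 1377 were X-linked and 6847 autosomal. These are descriptions over 33 arrays that share groups and sites.

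Over the levels of all 33 arrays, the genes whose pattern was most like each member were named by Pearson's r, again as a description. fru had the closest partners: foxo (0.93), a transcription factor gene of insulin signalling, CG34112 (0.91), Imp (0.90), an RNA-binding protein gene of neuroblasts, CG9747 (0.90) and CG33062 (0.89). tra came next, with Acbp1 (0.84), Tsp42Ej (0.81), GCS2alpha (0.80), Hou (0.80) and CG11191 (0.79). For msl-2 they were msb1l (0.78), CG7544 (0.76), MED6 (0.76), Chd3 (0.75) and Ote (0.75). For dsx they were Tsen15 (0.77), H (0.71), crq (0.70), Eip63E (0.69) and gish (0.68), and for the main Sxl probe set pds5 (0.76), Taf4 (0.75), mew (0.73), Ccm3 (0.72) and Ptpmeg (0.72).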

How the data were processed

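Total RNA of 33 samples had been hybridised to Affymetrix Drosophila arrays. Per the submitters' processing notes the authors used GCRMA, and the deposited table holds log2 expression values. Other settings and a genome build are not given in the sources used here. Per the deposited values the sites had been centred on WT, a step the labels do not describe. Arrays have no read depth, so 3 or 6 arrays per group limit the precision.

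Of 18952 probe sets, 13647 were annotated to a single gene, 402 to several, and 4903 were unlisted, including 183 controls. Each gene took its probe set of highest mean. The 8264 genes, and in a second fit the 11060 probe sets, with log2 over 4 on at least 3 arrays were tested with limma 3.58.1 in R 4.3.3: 1 mean for each of 11 combinations of group and site, contrasts within a site, empirical Bayes, Benjamini-Hochberg. Calls needed adjusted p under 0.05 and a difference of at least 1. The fit was tested on simulated data. Relations within groups used 100000 permutations of the deviations within group and site.

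Members and gene lists were chosen with earlier results of these data known, so lists are described by counts without a test. All members were named in every comparison, with up to 4 called genes of largest difference per list, the 5 genes most like each member, and l(3)mbt. The relations of Sxl 1625620_a_at, that of msl-2 with the X minus autosome median, and the repeats on probe sets were chosen after seeing the data. They took the place of a planned test of roX1 with roX2, which was not run because neither has an annotated probe set. Replicate numbers were checked for pairing: in 0 of 11 comparisons did every same-numbered pair correlate above 0.1, so they were not used as pairs.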

Additional observations from a re-analysis of the deposited data

Results flagged for a closer look

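Of 24 groups of 6 arrays examined for an array far from the others, 2 had one, where chance gives about 1 in 20. For fru 1631498_a_at, ts1 29 °C replicate 5 had 8.10 and the other 5 arrays of the group had 6.63 to 7.13, a gap of 0.66 of the whole range. That array is at IRB, and 3 of the others are at EMBL. For fru 1638111_at, near background, ts1 29 °C replicate 4 had 4.47 and the others 4.07 to 4.09, a gap of 0.95 of the range.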

How the results depend on the processing

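The alternatives were a common site term, fits of 1 site, leaving out the 5 arrays apart or each replicate, no filter or a filter at 6, centring each array on its median, the mean of a gene's probe sets, a replicate block, and a trended robust variance. No result reversed. Members called in T1 against ts1 brains at 29 °C went to 0 (1 as reported) without the 5 arrays, without a filter (fru adjusted p = 0.0579), with median centring (fru 1.24, adjusted p = 0.116) and with the mean of probe sets (fru 0.58, adjusted p = 0.172), and were 0 to 1 over single replicates left out. In T5 against WT the mean of probe sets gave 2, adding Sxl at -1.23 (adjusted p = 0.000834). Without E2 29 °C replicate 2 the members called were 1 in E2 brains against WT and 1 against 17 °C, and 0 without any other replicate. With a replicate block fru in T1 against WT stayed called, and of the member calls the block ended only that of fru 1632859_a_at in T10 against T1 (2.40, adjusted p = 0.0614). Of 92 calls of list genes, 65 held in every setting, 26 were lost on leaving out some replicate, 14 in fits of 1 site, 7 with the site term and 5 without the 5 arrays. Centring on the median shifts every difference from WT by 0.28 in both ts1 and E2 brains at 29 °C at IRB, by 0.15 in ts1/E2 and by 0.11 in E2 at 17 °C, and those of T1 against ts1 brains at 29 °C by -0.23. The other comparisons with WT shift by -0.07 to 0.06. Genes called moved by over 1.5 times as follows. With the site term they were 57 in ts1 at 17 °C (98 as reported), 221 in E2 at 17 °C (353), and 94 in ts1 at 29 °C against 17 °C (187). In fits of 1 site they were 485 in E2 at 29 °C (749), 317 in ts1 at 29 °C against 17 °C, and 8 in T10 against T5 (24). Without the 5 arrays they were 493 in E2 at 29 °C, 937 in ts1/E2 (485), 560 in E2 at 17 °C and 39 in T10 against T5. Over single replicates they were 364 to 955 in ts1 at 29 °C at IRB (726), 357 to 2460 in E2 at 29 °C, 297 to 552 in ts1/E2, 55 to 241 in ts1 at 17 °C, 183 to 264 in E2 at 17 °C, 356 to 1495 in E2 at 29 °C against 17 °C (539) and 14 to 87 in T10 against T5. For ts1 at 29 °C against 17 °C they stayed within 1.5 times over single replicates, at 125 to 230. The cause of these shifts was not tested. A low signal limits dsx 1623776_s_at, 3 fru probe sets and retn. A relation of roX1 with roX2, and its repeat without the 5 arrays apart, was not run for want of a probe set.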
